A study of Triticum aestivum with 6 samples.

Results

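Seed defence proteins of bread wheat (Triticum aestivum) were followed here through 7 gene loci of the 771 that the array's annotation pairs with probe sets, or 10 of 61179 tested probe sets. The members were taken by identifier: both probe sets of XIP-I, the single probe sets of WGA2 and wci, the 5 probe sets of the cluster that holds LTP3, and the 1 probe set paired with a gene whose synonym is PR5. The arrays measured RNA of embryos from mature seeds of the cultivar AC Domain that had been imbibed, or soaked in water, for 48 h. All mother plants grew on a cycle of 16 h light at 22 °C and 8 h dark at 18 °C until flowering. From flowering to harvest 1 group of plants was kept at 13 °C and the other at 28 °C, with 3 biological replicates and so 3 Affymetrix wheat arrays per temperature. The labels do not say whether the replicates came from separate plants, growth chambers or seed lots, so p-values speak only for the spread among these arrays, part of which may be technical. Embryos are a mix of cell types, and fewer cells of a type cannot be told apart from less RNA per cell.

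A cereal embryo stores proteins that slow fungi, insects and other attackers once the moist seed starts to leak nutrients. XIP-I is a xylanase inhibitor related to class III chitinases, which blocks fungal enzymes that digest cell wall xylan. WGA2 is an isolectin of wheat germ agglutinin, a chitin-binding lectin that accumulates in the embryo. LTP3 is a nonspecific lipid transfer protein, a small secreted protein that binds lipids, and members of its family have antimicrobial activity. PR5 is a class of pathogenesis-related proteins also called thaumatin-like proteins. For wci the annotation gives a symbol and no role.

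The values are RMA signals on the log2 scale, on which 1 unit is a 2-fold difference. All differences are 13 °C minus 28 °C, and a negative value means a lower signal at 13 °C. Differences were tested with limma over all tested probe sets with Benjamini-Hochberg adjustment, and a probe set passed at an adjusted p under 0.05. A probe set's level depends on its own probes, so levels are compared between temperatures and not between genes. RMA does not call probe sets present or absent. The background was therefore judged from 23 control probe sets whose transcripts were not added to the samples, of which the brightest averaged 4.71.

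XIP-I and most of the LTP3 cluster had lower signals in embryos of seeds developed at 13 °C, while WGA2 had a higher signal. Of the 10 member probe sets, 6 fell and 1 rose, and the other 3 did not pass. All that fell belong to XIP-I or the LTP3 cluster, so neither this count nor the median below is one of separate genes. Over all tested probe sets 15.1% fell and 18.5% rose, 33.5% in either direction. Those shares include dim probe sets, while 9 of the 10 members had a mean above the highest unspiked control. In a fit on the 33407 probe sets above that control, 18836 passed, 10338 higher and 8498 lower. Of the 9 members in that fit, 8 passed. The median difference of the members was -0.35, against 0.062 over all tested probe sets. A difference of at least 2-fold past the threshold was found for 2 members, both of XIP-I and both lower, against 5.62% of all tested probe sets lower and 3.68% higher by that much. The arrays of the temperatures did not overlap for 8 of the 10 members, against 44.3% of all tested probe sets, dim ones included.

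**Figure D1:**
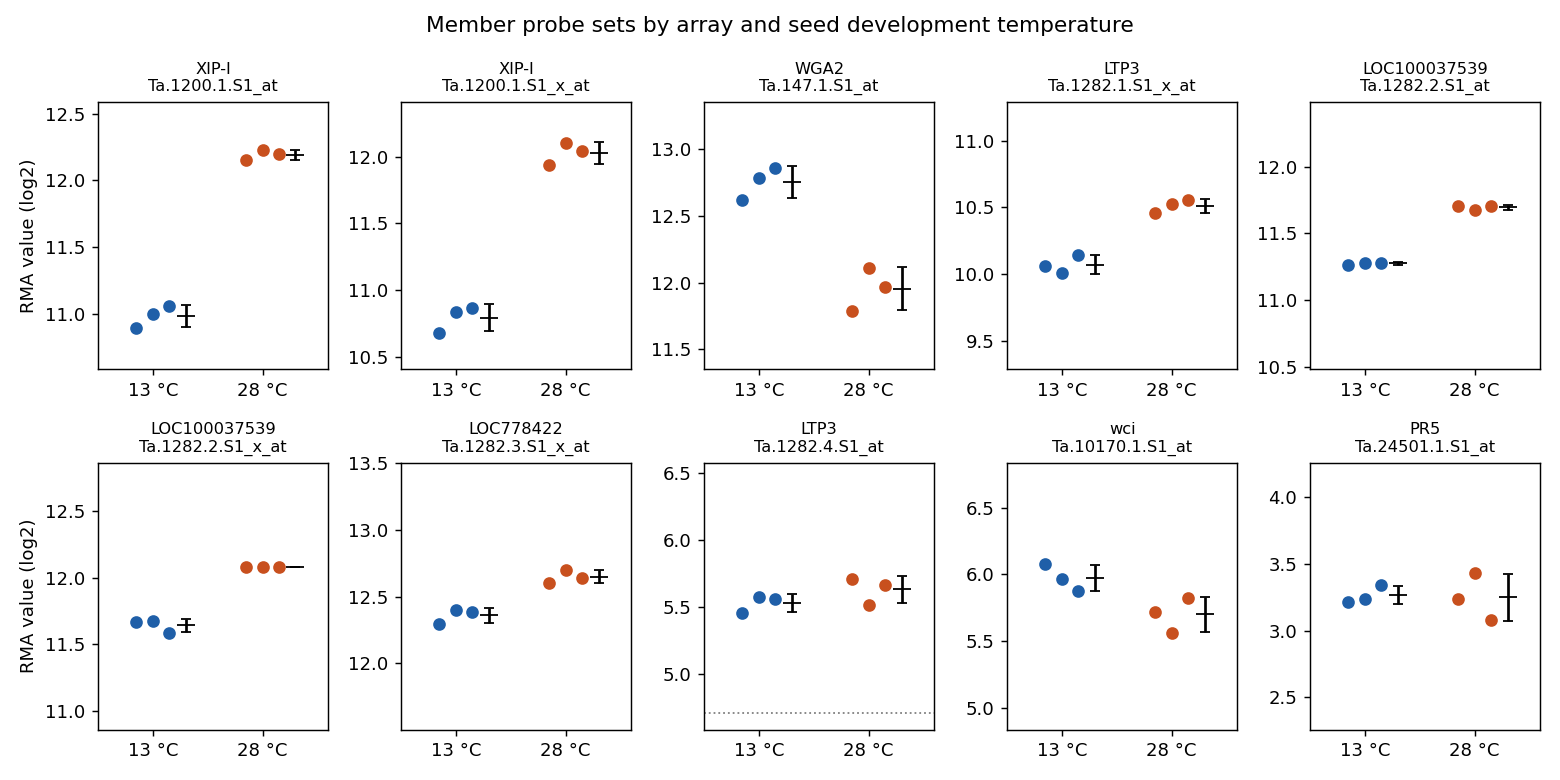
RMA value (log2) of each member probe set on each array, with a panel per probe set, 13 °C arrays in blue on the left and 28 °C arrays in orange on the right, and black bars for mean and SD (n = 3). Every panel spans the same range of 2 log2 units, and the dotted line, where it falls within a panel, is the highest unspiked control at 4.71. Both XIP-I panels show the widest separation, WGA2 is the one member past the threshold with 13 °C above 28 °C, and PR5 overlaps.

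The xylanase inhibitor showed the largest change of the members. On its probe set with the plain suffix _at, XIP-I (LOC542997) had 10.89, 11.00 and 11.06 in 13 °C embryos, against 12.15, 12.23 and 12.20 in 28 °C embryos. All 13 °C arrays lay below all 28 °C arrays, with 1.09 between the nearest arrays, while neither group spanned more than 0.16. The signal averaged 10.98 ± 0.083 in 13 °C embryos and 12.19 ± 0.039 in 28 °C embryos (SD, n = 3 each). The difference was -1.21 ± 0.086 (SE; limma adjusted p = 9.2e-06), so the 13 °C signal was 43.3% of the 28 °C signal. Of all tested probe sets, 4.34% had a difference at least as low.

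The other XIP-I probe set carries the suffix _x_at, for probes that may also bind related transcripts. Its signals were 10.68, 10.83 and 10.87 in 13 °C embryos, against 11.94, 12.10 and 12.04 in 28 °C embryos. It fell by 1.23 ± 0.093 (SE; limma adjusted p = 1.3e-05), with the groups apart as on the first probe set. Across the 6 arrays the XIP-I probe sets had a Pearson r of 0.999, a description of signals that share a gene and a temperature contrast. The gap between them within an array changed by 0.027 between temperatures, and the groups overlapped (exact two-sided permutation p = 0.4).

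WGA2 (LOC543494), the chitin-binding lectin, was the 1 member that rose. Its signals were 12.62, 12.78 and 12.86 in 13 °C embryos, against 11.79, 12.11 and 11.97 in 28 °C embryos. The lowest 13 °C array stood 0.51 above the highest 28 °C array. Means were 12.75 ± 0.12 in 13 °C embryos and 11.96 ± 0.16 in 28 °C embryos (SD, n = 3 each), a difference of 0.80 ± 0.11 (SE; limma adjusted p = 0.00046), or 1.74-fold with a 95% interval from 1.46 to 2.07. Of all tested probe sets, 6.14% had a difference at least as high. WGA2 has a single probe set in the annotation used, so no second probe set checks it. The rise did not pass once the arrays were scaled to control transcripts, a scaling that holds only if equal amounts of them were added, which the sources used here do not state.

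The LTP3 cluster comprises 5 probe sets of 3 loci. LTP3 itself (LOC543095) has a bright probe set with the suffix _x_at and a dimmer one with the suffix _at. LOC100037539 and LOC778422 have no name beyond the locus number, and are described only as members of the cluster. On the bright probe set, LTP3 had 10.06, 10.01 and 10.15 in 13 °C embryos, against 10.46, 10.52 and 10.55 in 28 °C embryos. The groups were apart by 0.31. LTP3 averaged 10.07 ± 0.071 in 13 °C embryos and 10.51 ± 0.049 in 28 °C embryos (SD, n = 3 each) and fell by 0.44 ± 0.085 (SE; limma adjusted p = 0.0032), to 73.7% of the 28 °C signal.

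The dimmer LTP3 probe set did not pass. Its signals were 5.45, 5.58 and 5.56 in 13 °C embryos, against 5.71, 5.51 and 5.66 in 28 °C embryos, and the groups overlapped. The difference was -0.099 (95% interval from -0.31 to 0.11, limma adjusted p = 0.46). The LTP3 probe sets therefore disagreed: within arrays their gap was 4.43 to 4.60 in 13 °C embryos and 4.75 to 5.01 in 28 °C embryos, a change of -0.34 with the groups apart (exact two-sided permutation p = 0.1, the smallest that 3 arrays against 3 can give). Across the 6 arrays their Pearson r was 0.52.

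Both probe sets of LOC100037539 fell, and they varied little between replicates. On its _at probe set it had 11.27, 11.28 and 11.28 in 13 °C embryos, against 11.71, 11.68 and 11.70 in 28 °C embryos. It fell by 0.42 ± 0.078 (SE; limma adjusted p = 0.0027), and 0.121% of all tested probe sets had a smaller spread within groups. On its _x_at probe set it had 11.67, 11.68 and 11.59 in 13 °C embryos, against 12.08, 12.08 and 12.08 in 28 °C embryos, and it fell by 0.44 ± 0.080 (SE; limma adjusted p = 0.0025). The gap between these probe sets changed by 0.017 (exact two-sided permutation p = 0.8).

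LOC778422 had the smallest change that passed. Its 1 probe set had 12.29, 12.40 and 12.38 in 13 °C embryos, against 12.60, 12.70 and 12.64 in 28 °C embryos, with 0.20 between the nearest arrays. It fell by 0.29 ± 0.084 (SE; limma adjusted p = 0.026), to 81.9% of the 28 °C signal. This call was lost in 4 of the 6 fits that left out 1 array: at -0.25 (limma adjusted p = 0.053) without 13 °C array 1, and at -0.31 (limma adjusted p = 0.051), -0.26 (limma adjusted p = 0.079) and -0.29 (limma adjusted p = 0.080) without 28 °C array 1, 2 and 3. Of the 5 cluster probe sets 3 end in the suffix for shared probes, so how much of a signal belongs to each locus of the cluster was not tested.

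Neither wci nor PR5 passed. The probe set of wci (LOC542996) had 6.08, 5.96 and 5.88 in 13 °C embryos, against 5.72, 5.56 and 5.82 in 28 °C embryos. The groups did not overlap, though the nearest arrays were 0.057 apart, less than the range of 0.20 within the 13 °C group. The difference was 0.27 (95% interval from 0.042 to 0.50, limma adjusted p = 0.070). With the test run on the 33407 probe sets whose mean was above the highest unspiked control, the same difference had a limma adjusted p = 0.046. A larger share of those probe sets passed, 18836 of 33407 against 20517 of 61179, and the adjustment depends on that share.

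The probe set of PR5 (LOC543292) had 3.22, 3.24 and 3.34 in 13 °C embryos, against 3.24, 3.43 and 3.08 in 28 °C embryos. All 6 values lay below the highest unspiked control, so PR5 was at background at both temperatures and no change in it could be resolved. Its difference was 0.017 (95% interval from -0.23 to 0.26, limma adjusted p = 0.92). PR5 was the 1 member below that control, and the other 9 probe sets were above it on every array.

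**Figure D2:**
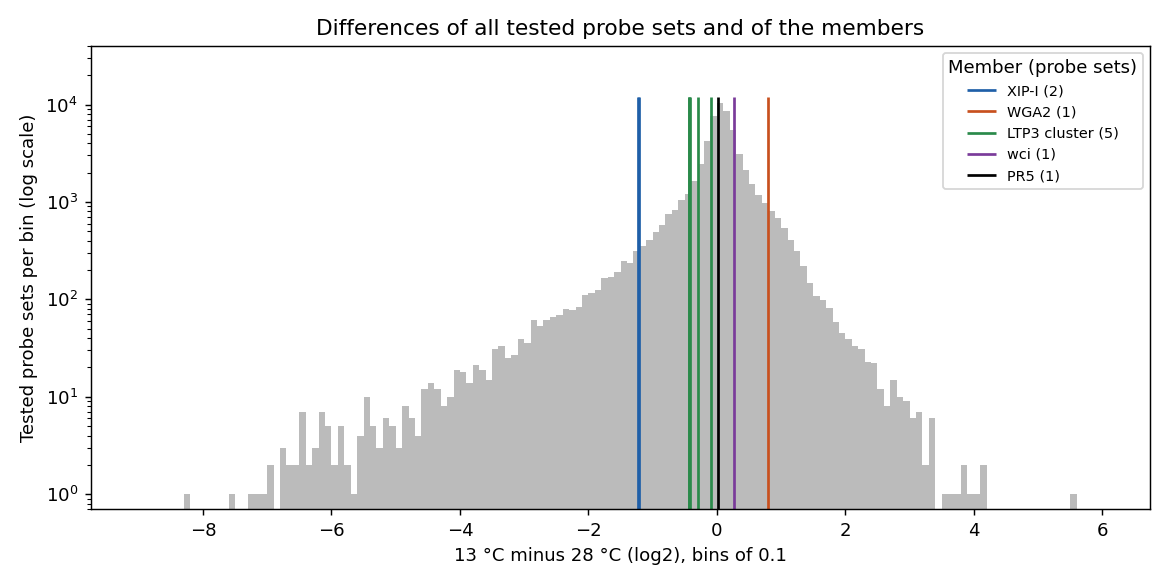
Histogram of the difference 13 °C minus 28 °C (log2) for the 61179 tested probe sets in bins of 0.1, with the number per bin on a log axis, and coloured lines at the differences of the 10 member probe sets. XIP-I at -1.21 and -1.23 and WGA2 at 0.80 lie on opposite flanks, 4 lines of the LTP3 cluster lie between -0.44 and -0.29, and PR5 lies at 0.017.

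Control transcripts added to the samples had higher means in 13 °C samples, and some calls were lost when the arrays were scaled to them. WGA2 lost its call with either kind of control. The LTP3 cluster lost its calls with the poly-A controls only, and XIP-I only with these and with 13 °C array 1 left out as well. Hybridisation controls, bacterial and phage transcripts added to the labelled sample, averaged 11.53 ± 0.51 in 13 °C samples and 10.90 ± 0.13 in 28 °C samples (SD, n = 3 each; difference 0.63, exact two-sided permutation p = 0.1). Poly-A controls, which are added before labelling, differed by 0.46 with overlapping groups (exact two-sided permutation p = 0.5). Their lowest level of the 6 arrays, 7.82, was on 13 °C array 2. On 13 °C array 1 both sets were the highest of the 6 arrays, and without it the differences were 0.36 and 0.060. Scaling to these controls shifts every difference by the same -0.63 or -0.46. In the scaled limma fits all 61179 probe sets received 1 common SE, which is treated as known although it rests on the controls of 6 arrays, so the adjusted p-values of these fits are too small.

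XIP-I differed by -1.83 ± 0.33 (SE) on its _at probe set with the hybridisation controls and by -1.66 ± 0.54 (SE) with the poly-A controls. Its groups of arrays stayed apart under both (exact two-sided permutation p = 0.1 each), and the scaled limma fits also called it lower. WGA2 was at 0.17 ± 0.33 (SE) and 0.34 ± 0.54 (SE), with overlapping groups (exact two-sided permutation p = 0.6 and 0.7), and was not called. The 4 LTP3 cluster probe sets that fell were at -0.91 to -1.07 with the hybridisation controls, with groups apart, and at -0.74 to -0.90 with the poly-A controls, with overlapping groups and no call. For wci, whose difference of 0.27 is smaller than either shift, the shift set the sign, at -0.36 and -0.18 with overlapping groups. With 13 °C array 1 left out as well, WGA2 was at 0.51 ± 0.22 (SE) with the hybridisation controls and 0.80 ± 0.46 (SE) with the poly-A controls, and was not called. XIP-I then differed by -1.52 ± 0.22 (SE) and -1.22 ± 0.46 (SE), and 0 members passed in limma with the poly-A controls (2 at an unadjusted p under 0.05).

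**Figure D3:**
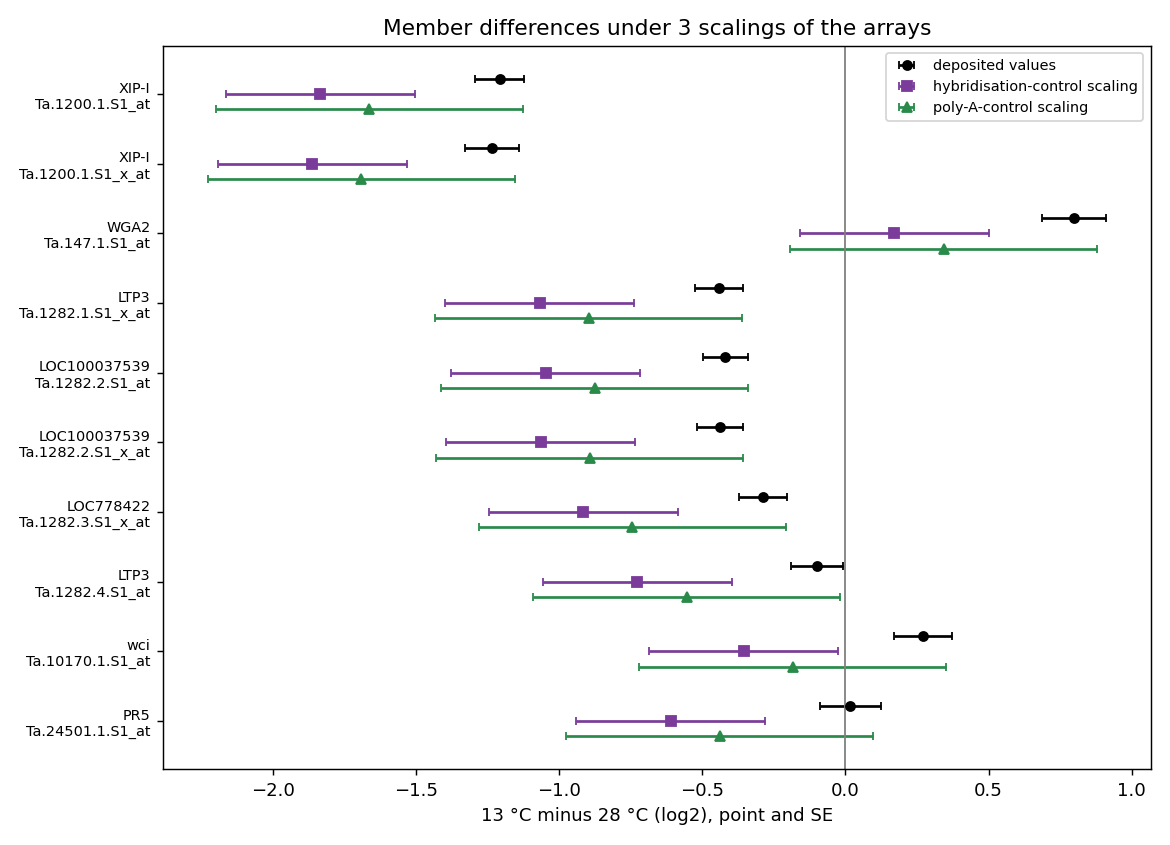
Difference 13 °C minus 28 °C (log2) of each member probe set with its SE, from the deposited values (black circles), after scaling to the hybridisation controls (purple squares) and after scaling to the poly-A controls (green triangles). XIP-I lies at -1.21 to -1.86 under all 3, and WGA2 lies within 1 SE of 0 under both control scalings.

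A comparison within arrays is free of any array-wide shift, so the 4 named genes above background were also set against each other on each array. PR5, at background, was left out. One probe set per named gene was used, the brighter where there were 2. For LTP3 this was the _x_at probe set, and the dimmer one, at -0.099, did not pass. The gaps with LTP3 therefore hold for its brighter probe set only. WGA2 minus XIP-I was between 1.73 and 1.80 in 13 °C embryos and between -0.36 and -0.12 in 28 °C embryos. This gap changed by 2.01 ± 0.074 (SE, n = 3 each, exact two-sided permutation p = 0.1), a 4.01-fold change of WGA2 relative to XIP-I that no array-wide scaling alters. It combines the differences already given, 0.80 for WGA2 and -1.21 for XIP-I. Both genes had groups apart, in opposite directions, so their gap had to be apart too and its p adds no support. XIP-I also fell further than LTP3, with a change of their gap of -0.77 ± 0.050 (SE), and WGA2 minus LTP3 changed by 1.24 ± 0.098 (SE). XIP-I minus wci changed by -1.48 ± 0.14 (SE) and LTP3 minus wci by -0.71 ± 0.12 (SE). The groups of arrays were apart for 5 of the 6 pairs. Each of these had an exact permutation p = 0.1, the smallest this test allows with 3 arrays against 3, and an adjusted p = 0.12. The 6 gaps come from 4 genes and so are not 6 separate results. The share of all possible pairs that lie apart was not computed, and 44.3% of single tested probe sets had groups apart. The groups overlapped for WGA2 minus wci, which changed by 0.53 ± 0.19 (SE, exact permutation p = 0.2).

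**Figure D4:**
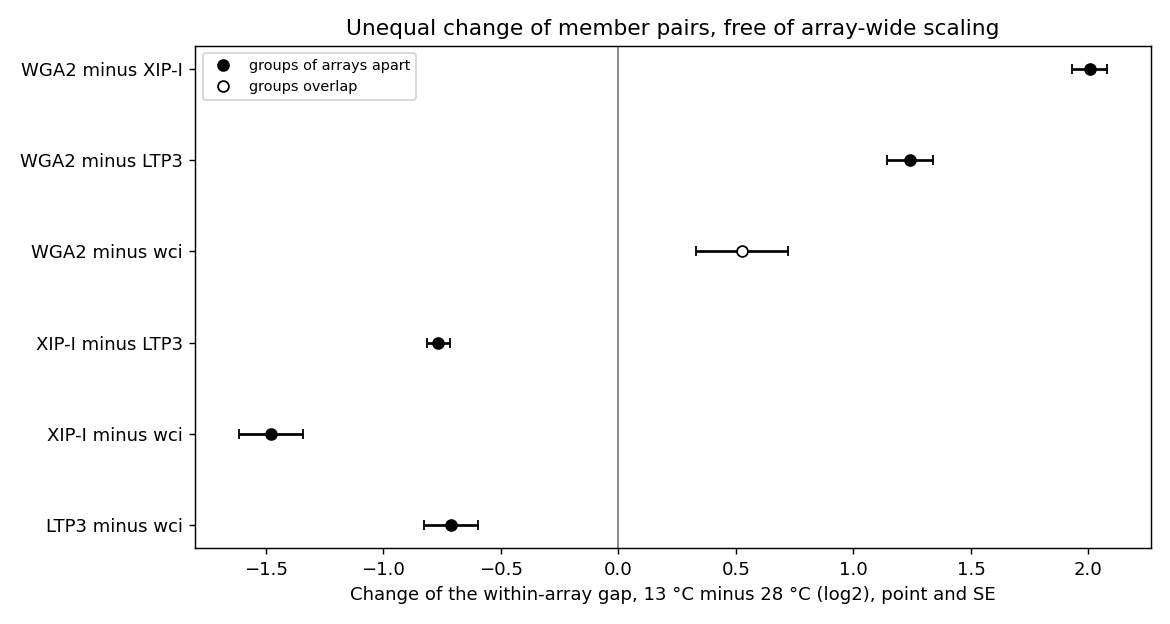
Change of the within-array gap between members (13 °C minus 28 °C, log2) with its SE from 3 arrays per temperature. Filled points are pairs whose arrays do not overlap between temperatures, and open points are pairs that overlap; WGA2 minus XIP-I is the farthest from 0 at 2.01.

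Other defence genes found by name gave no change past the threshold. The list held 11 further probe sets of 8 genes, which covered serpins (protease inhibitors of the grain), purothionins (antimicrobial peptides of the endosperm) and a monomeric alpha-amylase inhibitor. In limma with all arrays 0 rose and 0 fell (0 at an unadjusted p under 0.05, and 0 with a variance trend), with a median difference of 0.068, and 9 of the 11 had a mean below the highest unspiked control. The 2 brighter were SER1/SER3, a serpin, at 5.19 ± 0.084 in 13 °C embryos and 5.08 ± 0.12 in 28 °C embryos (SD, n = 3 each), and the inhibitor CIII/WMAI-1, at 5.16 ± 0.045 in 13 °C embryos and 5.20 ± 0.083 in 28 °C embryos. Without 13 °C array 3, 1 of the 11 rose: a purothionin, THI1.1, at 0.46 ± 0.10 (SE; limma adjusted p = 0.011), against 0.21 (limma adjusted p = 0.44) with all arrays, on a probe set with means of 3.50 in 13 °C embryos and 3.29 in 28 °C embryos, below that control. The thionin TTHV, which the search by name missed, differed by 0.17 (limma adjusted p = 0.42), also with a mean below that control at both temperatures.

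The genes with the pattern most like each member over the 6 arrays were taken from 72 named genes above the highest unspiked control. XIP-I was most like the fructan exohydrolase 6-FEH (Pearson r = 0.997), which had 6.85 ± 0.21 in 13 °C embryos and 8.68 ± 0.13 in 28 °C embryos (SD, n = 3 each), and like SAHH, an enzyme of the methyl cycle (r = 0.997). WGA2 was most like EM and Em/EMH2, late embryogenesis proteins (r = 0.996 each). LTP3 was most like the immunophilin FKBP70 (r = 0.990), followed by 6-FEH (r = 0.979). For wci the closest were petC (r = 0.871) and rbcl (r = 0.864), and for PR5, at background, FBP (r = 0.884) and UBC1 (r = 0.788). The arrays fall into 2 groups, so for XIP-I, WGA2 and LTP3 r mostly reflects the step between temperatures. Among all tested probe sets above that control, 14.5% had r of at least 0.95 with XIP-I, 15.4% with WGA2, 8.92% with LTP3, 0.401% with wci and 0.0120% with PR5. PR5, FBP and UBC1 did not differ past the threshold, and the likeness to PR5 is one of values without a resolved change. Nor did FKBP70 pass, at -0.23 (limma adjusted p = 0.057), or petC, at 0.28 (limma adjusted p = 0.059).

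Most embryo markers and the RNA measures moved with temperature too, while no endosperm marker passed. Of 12 embryo marker probe sets, chosen by gene name, 11 had a mean above the highest unspiked control. Of the 12, 8 rose and 1 fell, against 18.5% and 15.1% of all tested probe sets, dim ones included. Most of those that rose were probe sets of Em/EMH2 and EM, so the count is not one of separate genes. The mean level of the 12 was 10.28 to 10.86 on the 13 °C arrays and 9.02 to 9.60 on the 28 °C arrays. The brightest were Em/EMH2, at 13.92 ± 0.24 in 13 °C embryos and 11.52 ± 0.36 in 28 °C embryos (SD, n = 3 each), and EM, at 13.71 ± 0.22 in 13 °C embryos and 11.41 ± 0.35 in 28 °C embryos. Of 12 endosperm marker probe sets, for gliadins, glutenins and starch synthase, 2 had a mean above that control and 0 passed in limma (1 at an unadjusted p under 0.05, and 0 with a variance trend); their mean level was 3.71 to 3.83 on the 13 °C arrays and 3.70 to 3.74 on the 28 °C arrays. The brightest were a low-molecular-weight glutenin (LMW-GS), at 7.25 ± 0.25 in 13 °C embryos and 7.15 ± 0.12 in 28 °C embryos, and the gliadin Gli-8, at 5.74 ± 0.054 in 13 °C embryos and 5.55 ± 0.025 in 28 °C embryos (SD, n = 3 each). Of the other embryo list genes, PER1, LEA1 and Rab15 rose on 1 probe set each, by 1.57, 0.87 and 0.90, and COR410 fell by 0.48 at a level below that control. The other PER1 probe set, above that control, was at -0.094 and did not pass (limma adjusted p = 0.68). The other Rab15 probe sets did not pass either (limma adjusted p = 0.070 and 0.089), and groups overlapped on every Rab15 probe set. The 1 aleurone probe set, amy1/BMY1, named after both amylases of the imbibed grain, fell by 0.997 ± 0.19 (SE; limma adjusted p = 0.0033). It was at 3.26 ± 0.11 in 13 °C embryos and 4.26 ± 0.44 in 28 °C embryos (SD, n = 3 each), below that control at both temperatures. The signal at the 3-prime end minus that at the 5-prime end, a sign of RNA length, was wider in 13 °C samples by 0.84 for sucrose synthase and 0.90 for glucose-6-phosphate dehydrogenase (exact two-sided permutation p = 0.1 each). For sucrose synthase it was 6.90, 7.91 and 6.90 in 13 °C samples, against 6.36, 6.44 and 6.40 in 28 °C samples. For the dehydrogenase it was 3.17, 3.76 and 2.67, against 2.49, 2.25 and 2.16, so 13 °C array 2 was the highest on both. The part of these measures in the WGA2 rise and in the XIP-I and LTP3 falls was not tested. With 13 °C arrays 1 and 2 left out, a choice made after the data were seen, the 13 °C group is 1 array, which the fit assumes to vary like the 28 °C arrays. XIP-I then differed by -1.13 on its _at probe set, WGA2 by 0.90 and LTP3 by -0.36 on its bright probe set. On that assumption limma called 6 members in place of 7, without LOC778422.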

How the data were processed

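The authors deposited log2 probe set signals and, per the submitters' processing notes, made them by RMA. This method corrects background, gives all arrays the same distribution and summarises the probes of a set. Its version, the software and the genome build were not given in the sources used here, and no positions are printed. Because the distributions were made equal, a change in total mRNA cannot be read from them. The scanner files were not used here, and the number of arrays limits the precision.

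From the 61290 probe sets, 111 Affymetrix controls were left out, and 61179 were tested (64 reporter probe sets among them). GEO's platform annotation, which is old, paired 1273 with 1 gene, 0 with several and 59906 with none; 1272 matched RefSeq genes (assembly IWGSC CS RefSeq v2.1, used for names only), and 200 had an informative name. limma 3.58.1 in R 4.3.3 (lmFit and eBayes, 6 arrays, no covariate, two-sided) was tested on simulated data. Exact permutation tests and correlations used Python 3.11.15 with scipy 1.17.1. The members and lists were chosen with earlier results of these data known; within-array gaps and exact tests on scaled values were added after seeing the data. Text names all members, the 2 named genes most like each, other defence list genes past the threshold (none with all arrays), the 2 brightest embryo and endosperm markers, TTHV (from its name) and, outside that rule, the 2 brighter defence probe sets, THI1.1 and further embryo markers, chosen after their values were seen. Same-numbered arrays correlated at 0.044, 0.012 and 0.019 in their deviations from the group means, so the numbers were not taken as pairs. Alternatives were 2 control scalings, a variance trend, a filter on dim probe sets, a background floor, a replicate block and leaving out arrays.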

Additional observations from a re-analysis of the deposited data

How the results depend on the processing

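Over all tested probe sets, 20517 passed with the deposited values, 11304 higher and 9213 lower. Scaling to the hybridisation controls gave 12469 (654 higher, 11815 lower), scaling to the poly-A controls 3002 (199 higher, 2803 lower), and poly-A scaling without 13 °C array 1 gave 3073 (817 higher, 2256 lower). Of the members, 7 passed (1 higher, 6 lower). With the poly-A controls 2 passed, both lower and 0 higher, and without 13 °C array 1 as well 0 passed. With the hybridisation controls 0 were higher, with all arrays and without 13 °C array 1. With dim probe sets filtered out 2 were higher, WGA2 and wci. Of the defence list, 4 probe sets passed, all of them members, against 2 with the poly-A controls and 0 without 13 °C array 1 as well. With 1 array left out, 6 to 7 members passed, 1 of them higher and 5 to 6 lower, against 16474 to 19571 of all probe sets and 4 to 5 of the defence list, the added one being a purothionin without 13 °C array 3. The sign of wci turned to -0.36 and -0.18 with hybridisation and poly-A control scaling, and to -0.14 with hybridisation control scaling without 13 °C array 1. PR5, at background, turned to -0.61 and -0.44, to -0.31 and -0.017 without 13 °C array 1, and with the deposited values to -0.022 without 13 °C array 3 and -0.068 without 28 °C array 3, within a range of -0.068 to 0.11 with any 1 array left out. The variance trend and the replicate block, under which 20226 probe sets and 7 members passed, kept the sign and call of all 10 members. The background floor set PR5 to 0 difference. Over single members, 120 of 149 alternative values were counted as unchanged, 19 lost the call, 1 gained it and 9, all of wci or PR5, changed sign. Of these 9, 7 follow from the uniform shift of control scaling. Unchanged meant the same sign and call. Values with the background floor have no call. They counted as unchanged if they moved by less than the larger group SD, PR5 at 0 included. Scaled fits carry 1 common SE treated as known, and equal amounts of the controls are not stated, so their calls are uncertain.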
